A study of Drosophila melanogaster with 12 samples.

Results

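The cytoplasmic ribosomal protein genes of *Drosophila melanogaster* were followed in antennal RNA-seq libraries of control and *amos* mutant animals. Members were all genes whose symbol begins with RpL or RpS followed by a digit, which leaves out the mRpL and mRpS genes of the mitochondrial ribosome. Of 88 such symbols, 83 matched a row among the 15682 genes counted, 47 of the large subunit (RpL) and 36 of the small subunit (RpS). RpS10b, RpL27A, RpL31, RpL19 and RpS12 matched no row by identifier and were not analysed here. RpLP0, RpLP1, RpLP2, sta and RpLP0-like encode further proteins of this ribosome or close relatives, and were read as a separate list because their symbols fall outside the rule.

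The study used antennae that lose the sensilla specified by *amos*, a proneural transcription factor gene, to separate the odorant receptor from the ionotropic receptor neurons. Control animals were *w1118* flies and mutant animals carried *amos3*, all reared on standard medium at 22 °C in alternating light and dark. Adult samples held about 300 antennae from flies of both sexes aged 0 to 4 h, and disc samples held 50 antennal discs cut away from the eye disc of larvae of the last instar. Each of the 4 groups (control adult, *amos* adult, control disc, *amos* disc) had 3 samples, each pooled from many animals. The labels do not say whether the *amos3* stock shared the *w1118* background, so genotype and strain background cannot be told apart.

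Cytoplasmic ribosomes translate the messenger RNAs of the nucleus, and each subunit is built from ribosomal RNA and a fixed set of proteins present in about equal numbers. The transcripts of these genes are short, abundant and usually controlled together, and in flies reduced dosage of many of them gives the Minute phenotype of thin bristles and slow growth. Several members have a second gene copy, and some of those copies are known mainly from the germ line. In whole tissue, fewer cells of a type and less RNA per cell cannot be told apart.

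Libraries held 25150198 to 25721392 reads on genes in control adults, 36396746 to 50252338 in *amos* adults, 26796503 to 27661261 in control discs and 39247300 to 43984887 in *amos* discs, so that the mutant libraries were deeper at both stages. With 0 to 3 reads a sample, the *amos* gene itself could not check the labels. Orco, the co-receptor of odorant receptors, had 2769 to 3104 CPM (reads per 1000000 reads on genes) in control adults and 57.5 to 115.1 CPM in *amos* adults. Among 3 olfactory neuron markers, 4 general neuronal markers and 3 odorant-binding protein genes of support cells, the summed level was lower in every *amos* adult than in any control adult. The sums were 3134 to 3502 against 776 to 870 CPM, 1444 to 1521 against 740 to 914 CPM, and 16088 to 16608 against 5076 to 5556 CPM. The sums hide members that rose in *amos* adults by edgeR, the ionotropic co-receptors Ir25a (log2 fold change 0.40, adjusted p 0.0048) and Ir8a (1.49, adjusted p 9.7e-05) and the binding protein gene Obp59a (1.2, adjusted p 1.5e-05), while Orco was at -5.06. Genes of the mitochondrial genome held 1.16% to 1.45% of reads in control adults, 0.127% to 0.179% in *amos* adults, 0.560% to 1.03% in control discs and 0.0583% to 0.0786% in *amos* discs, so they were lower in every *amos* library of both stages. Control disc replicates 2 and 5 stood apart. Replicate 5 was the highest control disc for 67 of 75 members with at least 10 reads in every sample, and 5 muscle genes summed to 851 CPM in it against 122 CPM and 101 CPM in the other control discs. Replicate 2 was the lowest control disc for 71 of those members, and its fat body genes summed to 2787 CPM against 37.4 CPM in replicate 1, 204 CPM in replicate 5 and 239 to 373 CPM in *amos* discs. In control and *amos* discs 7 eye disc genes summed to 251 to 338 CPM and 138 to 176 CPM. The part of these differences in the ribosomal protein results was not tested.

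The 83 genes together took a larger share of the reads in discs than in adult antennae. In control adults they held 3.96%, 4.26% and 3.76% of the reads counted on genes. In *amos* adults they held 3.82%, 3.32% and 3.17%. The highest *amos* adult lay above the lowest control adult, so the adult ranges overlapped. In control discs the share was 12.7%, 11.8% and 14.5%, and in *amos* discs it was 13.9%, 13.5% and 13.6%. Every disc lay above every adult sample, and the *amos* discs lay within the range of the control discs. Group means were 4.00% ± 0.25 in control adults, 3.43% ± 0.34 in *amos* adults, 13.0% ± 1.40 in control discs and 13.7% ± 0.22 in *amos* discs (SD, n = 3). Without control disc replicate 5 the control disc mean was 12.2%. Over the same samples the 71 mitochondrial ribosomal protein genes held a small share of reads, with group means from 0.21% to 0.24%.

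**Figure D1:**
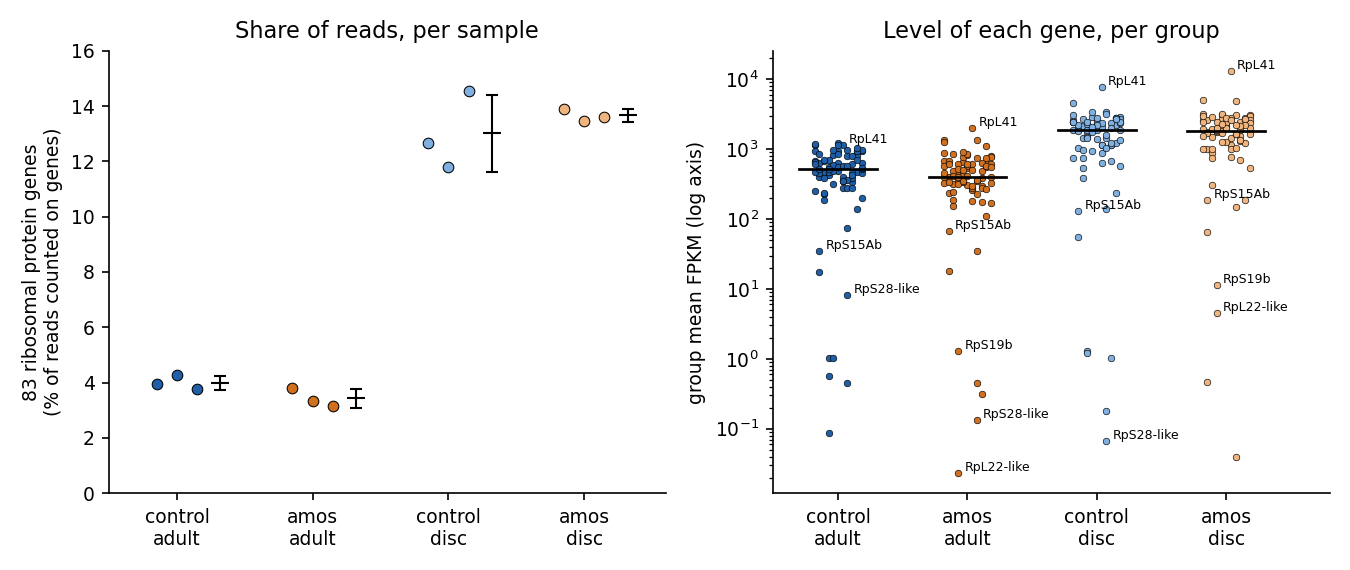
Left, percent of reads counted on genes that fell on the 83 ribosomal protein genes in each sample (points, with mean and SD of 3 beside them); discs lie between 11.8% and 14.5% and adults between 3.17% and 4.26%. Right, group mean FPKM of each member on a log axis (members at 0 are not drawn, lines are medians); most members sit in a band around the median and about 10 second copies and minor members lie far below it.

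Levels between members were compared per length, as FPKM (reads per 1000 bp of joined exons per 1000000 reads on genes). The median member had 517 FPKM in control adults, 403 in *amos* adults, 1880 in control discs and 1823 in *amos* discs. Between 56 and 62 of the 83 members lay within 2-fold of that median in each group, and 10 or 11 lay under 0.1 of it. RpL41, which encodes the smallest protein of the ribosome, had the highest level in 3 of the 4 groups, with 2000 FPKM ± 372 in *amos* adults, 7784 ± 1092 in control discs and 13157 ± 2415 in *amos* discs (SD, n = 3). In control adults RpL36, a large subunit protein, led with 1217 FPKM ± 75.4. It was followed by RpS27A, which is made as a fusion with ubiquitin, at 1167 ± 66.3 and by RpL41 at 1159 ± 79.9, and these neighbours differed by less than their spread. RpS27A and RpL39, another very small protein of the large subunit, ranked just after RpL41 in *amos* discs at 5073 FPKM ± 440 and 4906 ± 868.

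At the low end stood mostly second copies. RpL10Aa and RpL37-2 had no read in any of the 12 samples, which allows up to 3 reads or 0.119 CPM in the shallowest library, and RpS28a had 2 reads in 1 sample. RpS10a had at most 15 reads in any sample. RpS15Ab had 34.5 FPKM ± 0.44 in control adults and RpL7-like had 17.6 ± 0.52. RpL22, the main copy of its pair with 96.6% to 99.9% of the FPKM by group, had 73.5 ± 14.8 in control adults. RpL22 varied more than most members between replicates, with coefficients of variation from 20.2% to 37.7% over the groups. The median over members with at least 10 reads was 5.49% to 12.7%.

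The comparison of stages within control animals asked how the antenna changes from the larval disc to the newly emerged adult. Ribosomal protein transcripts were lower in the adult almost throughout. In edgeR's quasi-likelihood test (adjusted p under 0.05, adjusted over all genes), 74 of the 79 members tested were lower in adults and 1 was higher. The background was 43.4% of the 9770 genes tested called lower and 43.2% called higher. The median log2 fold change of the members was -1.38, against -0.0033 for all genes tested. Lower calls were made for 43 of 45 large subunit members and 31 of 34 small subunit members.

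Members of both subunits moved by similar amounts, with an interquartile range from -1.62 to -1.15 on the log2 scale. RpL41 fell the most, from 2505, 2135 and 2833 CPM in control discs to 342, 390 and 381 CPM in control adults, a log2 fold change of -2.48 ± 0.12 (SE; edgeR adjusted p 3.6e-06). RpS2, which lies at the entry of the messenger RNA channel, fell from 2759, 2686 and 3399 CPM to 552, 592 and 479 CPM, a log2 fold change of -2.18 ± 0.13 (edgeR adjusted p 7.4e-06). In both genes no adult reached any disc.

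A few members fell little from disc to adult. RpS14b went from 210, 206 and 267 CPM to 142, 147 and 131 CPM in controls, a log2 fold change of -0.43 ± 0.11 (edgeR adjusted p 0.010). RpL24-like, whose human and yeast relatives are factors of 60S subunit assembly, went from 179, 162 and 211 CPM to 112, 117 and 97.6 CPM, a change of -0.49 ± 0.11 (edgeR adjusted p 0.0061). Both calls were lost with a filter of at least 10 reads in every sample. RpL36 changed by -0.67 ± 0.11. RpL22 gave -0.64 ± 0.28 and did not pass the test (edgeR adjusted p 0.071). RpS28-like was the 1 member called higher and is described with the paralogues.

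In *amos* animals most members were again lower in adults than in discs. Of the 78 members tested 77 were lower in adults and 0 were higher, with 41.8% of the 9985 genes tested called lower and 43.8% called higher. No member was higher at an unadjusted p under 0.05, and DESeq2 called none higher. The median was -1.70, against 0.05 for all genes tested. All 74 members called lower in control animals were among the 77 called lower in *amos* animals. The matching overlap over all genes was not computed, so this one cannot be called particular to the members. RpS2 (-2.53 ± 0.09) and RpL41 (-2.39 ± 0.19) again fell far. RpS14b (-0.41 ± 0.09) and RpL24-like (-0.45 ± 0.08) again fell least among the members called.

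**Figure D2:**
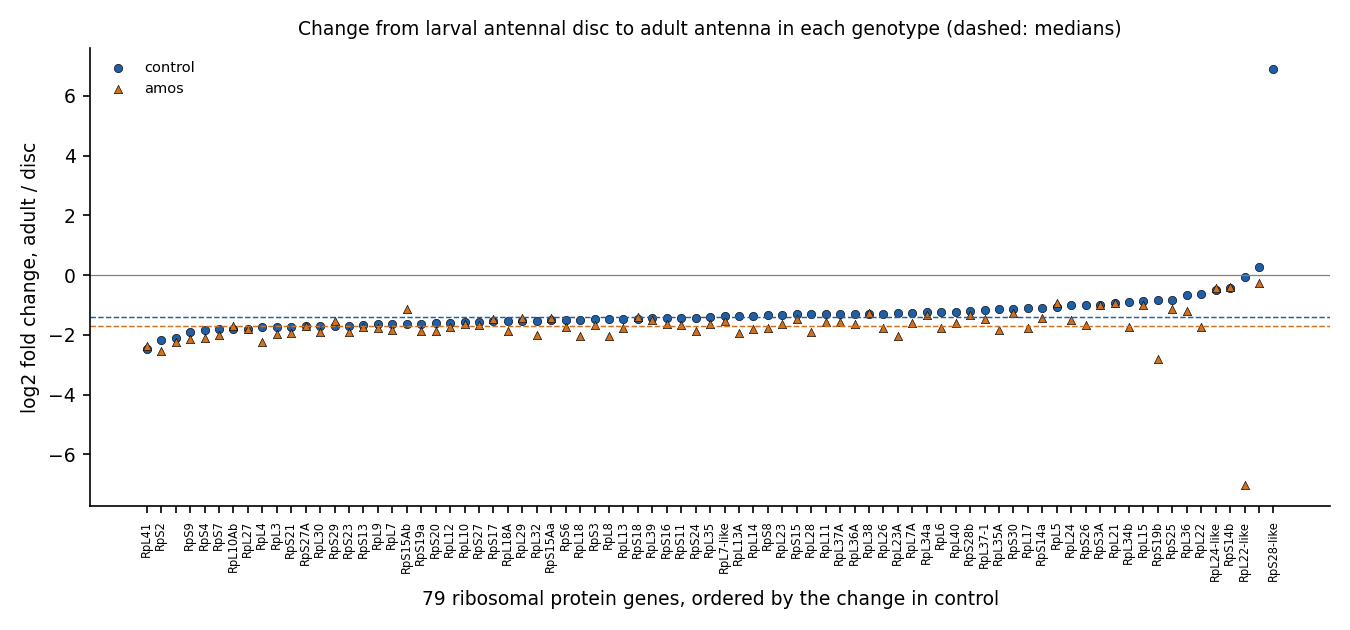
Log2 fold change from larval disc to adult antenna for 79 members in control (circles) and 78 in *amos* (triangles), ordered by the control value, with the medians of -1.38 and -1.70 as dashed lines. Nearly all points lie below 0, with RpS28-like at 6.91 in control and RpL22-like at -7.03 in *amos* far from the rest.

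The size of the stage change depends on the scaling more than its direction does. With scaling by total counts, the median of all genes moved to -0.27 in control and -0.28 in *amos*, and that of the members moved to -1.65 and -2.03. With the trend against exon length removed, the member medians were -1.95 and -2.19, and every count of members called lower stayed between 72 and 77 under the alternatives run. Single members moved further. In control, RpL41 was at -3.61 with the exon length trend removed and at -5.06 with the coding length trend removed. RpS14b was then at -1.36 and -1.14, RpL24-like at -1.17 and -1.04 and RpL36 at -1.48 and -1.60, so the small falls of these genes depend on that setting.

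Other translation genes were read from lists chosen by function, beside 43.4% of all genes lower and 43.2% higher in control. Ribosome biogenesis and RNA polymerase I genes were lower in adults for 31 of 31 tested in control and in *amos*, with medians of -2.12 and -1.96. Nop60B, the pseudouridine synthase of ribosomal RNA, was at -4.41 ± 0.08 and Non1, a GTPase of 60S assembly, at -0.80 ± 0.18 in control. Initiation factors were lower for 30 of 34 in control and 31 of 36 in *amos*, with medians of -0.79 and -0.71. Of 7 elongation factors 5 were lower in each genotype, and eEF1alpha2 was higher at 6.03 ± 0.51 in control. The 5 ribosomal proteins outside the symbol rule were all lower in both genotypes, with medians of -1.83 and -2.02. The mitochondrial ribosomal protein genes had 27 of 70 higher and 17 lower in control, both smaller shares than over all genes, with a median of 0.14.

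Among regulators of growth and of ribosomal protein supply, Myc fell by 3.78 ± 0.22 on the log2 scale in control and the transcription factor Dref fell by 2.44 ± 0.07. M1BP, which binds ribosomal protein gene promoters in flies, fell by 1.52 ± 0.07. Xrp1, induced in Minute mutants, was higher in adults by 1.37 ± 0.13, as were REPTOR (1.21 ± 0.27) and foxo (0.81 ± 0.10). Of the 9 regulators tested, 5 were lower and 3 were higher in control, shares not far from the 43.4% and 43.2% of all genes.

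The comparison of *amos* with control adults gave a smaller shift in the same genes. Of the 79 members tested, 44 were lower in *amos* adults and 6 were higher, while 24.4% of the 9724 genes tested were called lower and 22.7% higher. RpS19b among the higher, and RpS28-like and RpL22-like among the lower, reached the test through the group where they were higher. The member median was -0.32, against -0.0036 for all genes, and 64 of the 79 values were negative. Lower calls were made for 25 of 45 large subunit members and 19 of 34 small subunit members. Of the 5 ribosomal proteins outside the rule 3 were lower too, led by RpLP2 of the ribosomal stalk at -0.78 ± 0.13, while RpLP0 gave -0.05 ± 0.10 and did not pass.

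The lower calls were mostly small changes. Apart from second copies, the change was greatest in RpL22, which went from 84.3, 95.2 and 63.1 CPM in control adults to 28.4, 50.8 and 36.2 CPM in *amos* adults. The groups did not overlap, and the log2 fold change was -1.09 ± 0.23 (edgeR adjusted p 0.0059). RpL22 shares 34.3% of its exon bases with a long noncoding RNA gene on the same strand, so its counts are uncertain. RpL35A, RpL8, RpL17, RpL26 and RpS26 were chosen after their values were seen, as the next lowest in order. RpL35A, a large subunit protein, had 296, 320 and 265 CPM in control adults and 171, 201 and 135 CPM in *amos* adults, a change of -0.82 ± 0.14 (edgeR adjusted p 0.0020). RpL8 had 732, 780 and 598 CPM against 379, 432 and 429 CPM, a change of -0.79 ± 0.12 (edgeR adjusted p 0.0010). RpL17 and RpL26, which lie at the opening of the peptide exit tunnel, changed by -0.77 ± 0.11 and -0.69 ± 0.08, and RpS26 at the mRNA exit by -0.71 ± 0.12. In all of these genes every *amos* adult lay below every control adult.

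Some abundant members, also named after their values were seen, did not pass this test. RpS3A, the only member on chromosome 4, gave -0.03 ± 0.10, RpL5, which carries the 5S ribosomal RNA, gave 0.09 ± 0.10, and RpS27A gave 0.07 ± 0.10. Of the 17 members tested on chromosome arm 2L 7 were lower, of 13 on X 9, of 12 on 3L 7, of 20 on 3R 13 and of 16 on 2R 8. The 4 higher calls on 2R and 2 on 3R made up all 6, by the arms of BDGP6.54. Shares of all genes called on each arm were not computed, so these counts do not set any arm apart.

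The number of lower calls rests in part on single libraries. It was 28 without control adult replicate 5, 24 without control adult replicate 6, and between 32 and 53 without each of the other libraries, with 24 of the 44 called in every such fit. Over all genes, lower calls went from 2370 to 1876 and 1797 without control adult replicates 5 and 6. They were between 1912 and 2462 without each of the others. RpL22, RpL35A, RpL8, RpL17, RpL26 and RpS26 were among those 24. Control adult replicate 6 was the highest control adult for 70 of 75 members and *amos* adult replicate 1 the highest *amos* adult for 54.

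In the discs the comparison of *amos* with control gave few calls. Of 78 members tested 10 were higher in *amos* discs and 0 were lower, while 6.57% of the 8909 genes tested were called higher and 6.63% lower. At an unadjusted p under 0.05, edgeR had 20 members higher and 2 lower, and DESeq2 called 16 higher and 1 lower after adjustment. Over all genes these counts were 1394 and 1532 of 8909 unadjusted, and 1016 and 1143 of 8883 with DESeq2. The member median was 0.07 against -0.0014 for all genes. The SD of the member median between replicate samples was 0.11, as 1 value for the disc comparison. Against the other 2 of its group, the member median was -0.045, -0.20 and 0.26 in the control discs and 0.017, -0.025 and 0.0069 in the *amos* discs (log2). The control discs thus spread more. Without control disc replicate 5 the median was 0.13 and 15 members were higher. Without any one of the other libraries 2 to 4 were higher, and RpS19b and RpS15Ab were the members called in every such fit (2 without control disc replicate 1 or 2, or without *amos* disc replicate 1 or 3, and 4 without *amos* disc replicate 2). Calls moved over all genes as well. Higher calls went from 585 to 715 without control disc replicate 5, and to between 90 and 215 without any one of the others.

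RpL41, RpL39, RpS29, RpS15Ab and RpS19b, 5 members in all, were higher in *amos* at both stages. RpS19b reached the adult test only through the *amos* adults, where it was higher. Over all genes tested 22.7% were called higher in adults and 6.57% in discs. The share of all genes called higher at both stages was not computed, so this overlap has no background beside it. RpL41 had 342, 390 and 381 CPM in control adults and 748, 513 and 659 CPM in *amos* adults, a log2 fold change of 0.76 ± 0.14 (edgeR adjusted p 0.0027). In discs it had 2505, 2135 and 2833 CPM in control and 5057, 3543 and 4031 CPM in *amos*, a change of 0.77 ± 0.16 (edgeR adjusted p 0.031). Groups did not overlap at either stage. RpS29, a zinc-binding protein of the small subunit, had 327, 364 and 358 CPM in control adults against 629, 492 and 547 CPM in *amos* adults, a change of 0.64 ± 0.10 (edgeR adjusted p 0.0013). In discs it had 1344, 1222 and 1525 CPM against 2351, 1809 and 1938 CPM, a change of 0.59 ± 0.12 (edgeR adjusted p 0.032). RpL39, near the peptide exit tunnel, changed by 0.47 ± 0.17 in adults (edgeR adjusted p 0.047) and by 0.65 ± 0.16 in discs (edgeR adjusted p 0.043).

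RpL41, RpL39 and RpS29 have the shortest coding sequences of all members. They hold 25, 51 and 56 codons without the stop codon. RpL29, also short with 76 codons, was higher in adults (0.44 ± 0.12, edgeR adjusted p 0.017) and gave 0.46 ± 0.12 in discs without passing (edgeR adjusted p 0.057). RpL38, with 70 codons, gave 0.37 ± 0.19 and 0.44 ± 0.16 and passed at neither stage. RpS28b, with 65 codons, gave -0.05 ± 0.11 and 0.19 ± 0.10 and passed at neither. Other short members went the other way in adults. RpS28-like, with 76 codons, was lower there (-5.86 ± 0.54, edgeR adjusted p 8.6e-05). RpS21, with 83 codons, was also lower (-0.32 ± 0.09, edgeR adjusted p 0.017) and gave -0.0028 ± 0.10 in discs without passing. RpS27, with 84 codons, gave -0.21 ± 0.11 and 0.0013 ± 0.09 and passed at neither stage.

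**Figure D3:**
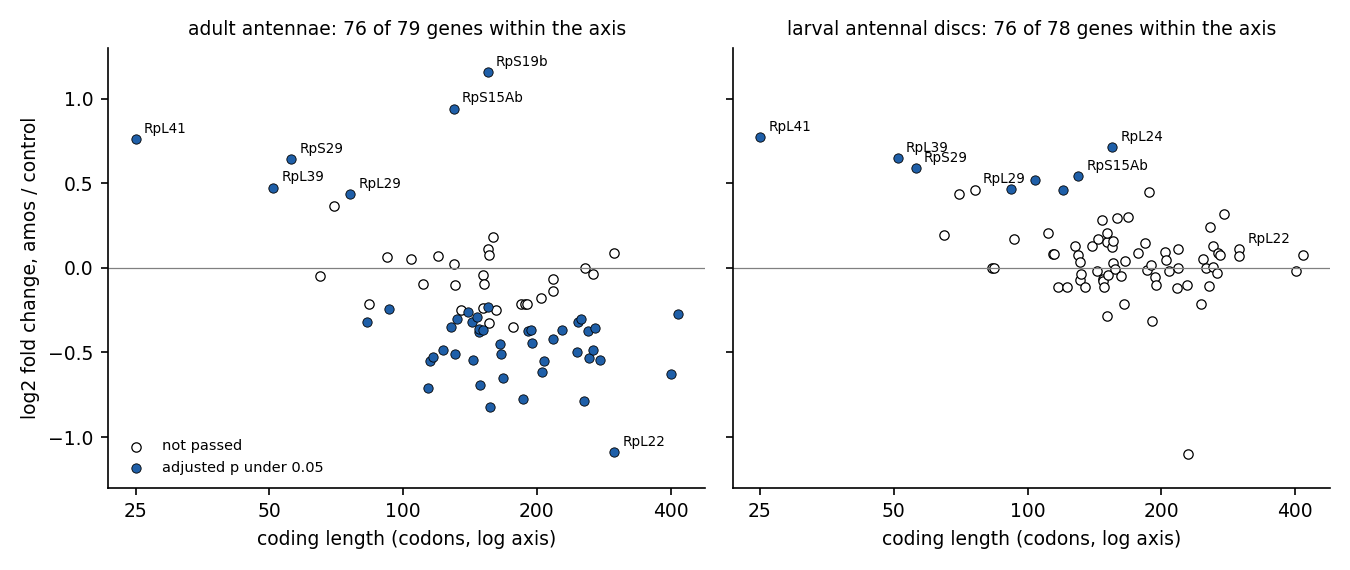
Log2 fold change of *amos* over control against coding length in codons (log axis) for members within the plotted range, adults left and discs right, with filled points for adjusted p under 0.05. The shortest genes RpL41, RpL39 and RpS29 lie above 0 at both stages, and most of the longer members lie below 0 in adults.

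Across members the adult change ran against coding length, with a Spearman rho of -0.36 over 79 genes, and the disc change gave -0.26 over 78. Over all genes tested the same rho was -0.019 over 9136 genes in adults and -0.20 over 8299 genes in discs. The 10 tested members with the shortest coding sequences had a median of 0.21 in adults and 0.45 in discs, and the 10 longest had -0.51 and 0.083. These genes share libraries and are not independent, so no test was made. Replicates of one group also differed by length. The deviation of *amos* disc replicate 1 from its group mean had a rho of -0.44 with coding length over 75 members and that of *amos* disc replicate 2 a rho of 0.44. In *amos* adults replicate 1 had -0.44 and replicate 2 had 0.36, and in control adults replicate 5 had 0.65 and replicate 7 -0.51. Over 7143 genes the same values were -0.38 and 0.39 for the *amos* discs, -0.58 and 0.29 for the *amos* adults, and 0.13 and -0.10 for the control adults. RpL41, RpL39 and RpS29 were highest in replicate 1 of both *amos* groups, and the part of this in their change was not tested.

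Alternatives with exon or coding length removed a trend on gene length from each sample before the test, fitted to its deviations from the mean of each gene. Such a step also takes out length trends between replicates of one group. With the trend on exon length, RpL41 stayed higher in discs at 0.43 and RpS29 at 0.50, and RpL39 was no longer called. With the trend on coding length, chosen after seeing the data, RpL41 was at 0.25, RpS29 at 0.25 and RpL39 at 0.29 in discs, all still called. The member median in discs turned from 0.07 to -0.03 and -0.04 under these alternatives. In adults 52 members were lower and 6 higher with the exon length trend removed, and the median was -0.31. Of all 9315 genes tested in that fit 2439 were lower and 2501 higher. The disc calls for RpL39 and RpS29 were lost without any one library other than control disc replicate 5, and that for RpL41 without 4 of those 5. The adult calls for RpL41 and RpS29 held without any one library, while RpL39 lost its adult call without 4 libraries and RpL29 without control adult replicate 5 or 6.

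**Figure D4:**
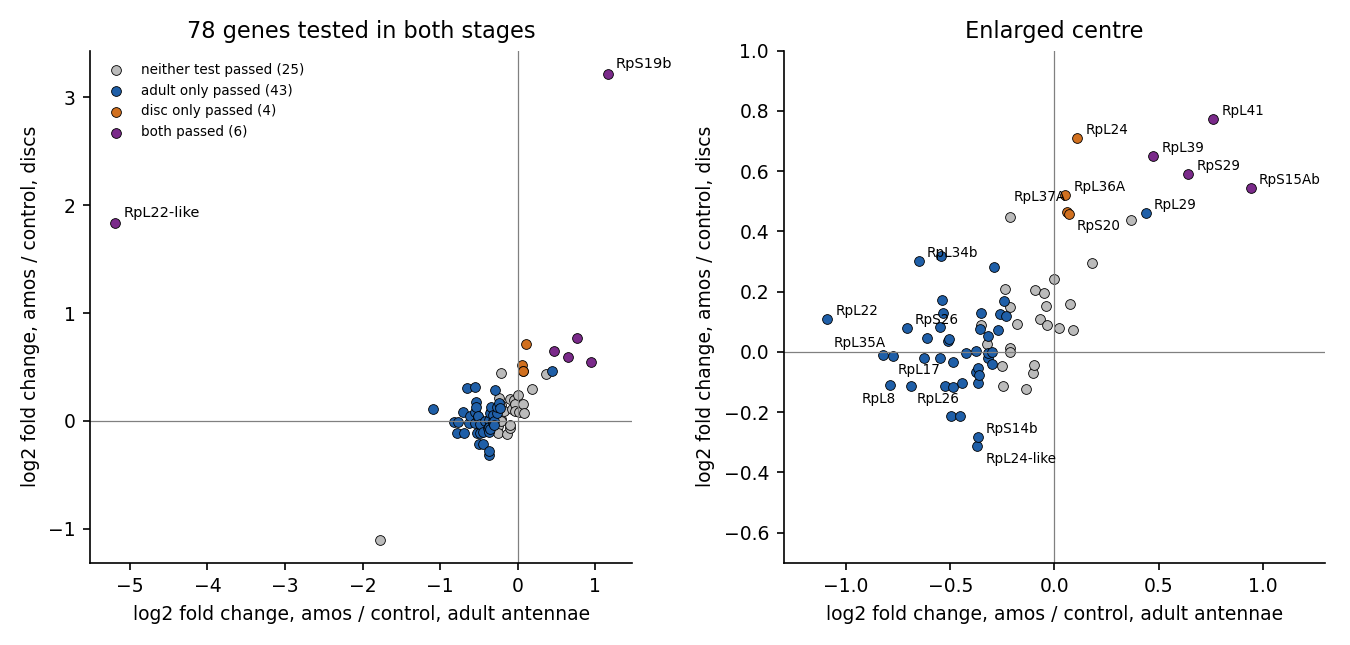
Log2 fold change of *amos* over control in adults (x axis) against discs (y axis) for the 78 members tested at both stages, with the centre enlarged at right and colours for the comparison in which each passed. Most members lie left of 0 in adults and near 0 in discs, RpL41, RpL39, RpS29, RpS15Ab and RpS19b lie upper right, and RpL22-like lies at -5.19 and 1.83.

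The difference between the adult and the disc effect of *amos* was tested as an interaction over all 12 samples. The effect was lower in adults than in discs for 15 of 79 members and higher for 1, with 8.06% of the 10319 genes tested called lower and 14.2% higher. The member median was -0.28, against 0.085 for all genes. Of the 15, 13 were large subunit members of 45 tested and 2 small subunit members of 34. The members called with the largest values apart from second copies, again picked for their values, were RpL23A at the peptide exit tunnel (-0.79 ± 0.22), RpL35A (-0.73 ± 0.22), RpS26 (-0.71 ± 0.17) and RpL17 (-0.68 ± 0.18). RpL22 gave -1.13 ± 0.45 and did not pass (edgeR adjusted p 0.101). RpL23A had 540, 571 and 464 CPM in control adults, 361, 446 and 292 CPM in *amos* adults, 1499, 1447 and 1642 CPM in control discs and 1585, 2161 and 1900 CPM in *amos* discs. Its *amos* samples thus lay below every control in adults, and in discs 1 of 3 lay among the controls. RpL23A shares 31.9% of its exon bases with Uhg7 on the same strand.

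This count depended on libraries of both stages. It was 41 without control disc replicate 5, 7 without control adult replicate 5, and 5 without control adult replicate 6. Lower calls over all genes went from 832 to 1250, 591 and 559 in the same fits. Of the genes named, RpS26 was called without any one library, RpL17 was lost without control adult replicate 6, RpL23A without 3 libraries and RpL35A without 4. RpL35A was also lost with either length trend removed.

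Paralogues left the common pattern most often. The rule covered 23 members in 11 families of 2 or 3 gene copies. Reads that fit both copies equally well are not counted uniquely, so the levels of near-identical copies are uncertain. The share of a copy in the FPKM of its family is given as mean ± SD of 3 samples.

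In the RpS14, RpL24 and RpL34 families both copies were well expressed, while in the RpS15A family the second copy was minor. RpS14a and RpS14b, which lie side by side on X and encode the same small subunit protein, differed in their stage change. RpS14b made up 40.5% ± 2.5 of the pair in control adults, 38.4% ± 2.6 in *amos* adults, 30.2% ± 3.1 in control discs and 23.5% ± 1.4 in *amos* discs. Every adult lay above every disc. RpS14a fell from disc to adult by 1.09 ± 0.09 on the log2 scale in control and RpS14b by 0.43 ± 0.11.

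RpL24 is the subunit protein and RpL24-like the assembly factor, so they are relatives rather than interchangeable copies. RpL24 in discs went from 638, 592 and 831 CPM in control to 1081, 1170 and 1082 CPM in *amos*, without overlap, a log2 fold change of 0.71 ± 0.14 (edgeR adjusted p 0.025). That call was lost without any one library other than control disc replicate 5. RpL24-like gave -0.31 ± 0.11 in discs and did not pass (edgeR adjusted p 0.0999), though DESeq2, the fit over all 12 samples and both length alternatives called it lower. In adults RpL24-like fell by 0.37 ± 0.09 (edgeR adjusted p 0.011), lost without control adult replicate 5 or 6, and RpL24 gave 0.11 ± 0.14 without passing. RpL24-like made up 38.4% ± 0.84 of the pair in control adults, 31.1% ± 2.2 in *amos* adults, 30.6% ± 1.1 in control discs and 17.7% ± 0.13 in *amos* discs. RpL24 shares 21.6% of its exon bases with CG7099 on the opposite strand.

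RpL34a and RpL34b, copies of 1 large subunit protein, changed their balance in opposite ways at the 2 stages. RpL34b made up 58.5% ± 2.3 of the pair in control adults and 51.8% ± 2.6 in *amos* adults, but 52.9% ± 1.7 in control discs and 58.6% ± 3.1 in *amos* discs. In CPM, RpL34b went from 263, 296 and 226 in control adults to 173, 188 and 147 in *amos* adults (-0.65 ± 0.12, edgeR adjusted p 0.0030). In discs it went from 574, 560 and 628 to 637, 801 and 706 CPM (0.30 ± 0.11, edgeR adjusted p 0.105, not passed). The interaction for RpL34b was -0.88 ± 0.17 (edgeR adjusted p 0.0046), called without any one library. RpL34a gave -0.25 ± 0.09 and -0.05 ± 0.10 and passed at neither stage.

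RpS15Ab was the steadiest of the members higher in *amos*. It had 24.7, 25.3 and 24.9 CPM in control adults and 49.1, 49.0 and 48.1 CPM in *amos* adults, with the groups far apart and replicates close together. The log2 fold change was 0.94 ± 0.07 (edgeR adjusted p 2.0e-05). In discs it had 98.3, 88.9 and 92.7 CPM in control and 143, 126 and 134 CPM in *amos*, a change of 0.54 ± 0.07 (edgeR adjusted p 0.011). RpS15Aa, its major copy, gave 0.02 ± 0.11 and 0.08 ± 0.09 and passed at neither stage. RpS15Ab thus made up 5.82% ± 0.30 of the pair in control adults, 10.6% ± 1.3 in *amos* adults, 6.36% ± 0.29 in control discs and 8.59% ± 0.38 in *amos* discs. Its interaction of 0.47 ± 0.09 (edgeR adjusted p 0.0051) made it the 1 member with a higher effect in adults than in discs. No alternative or left-out library ended its call at either stage.

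**Figure D5:**
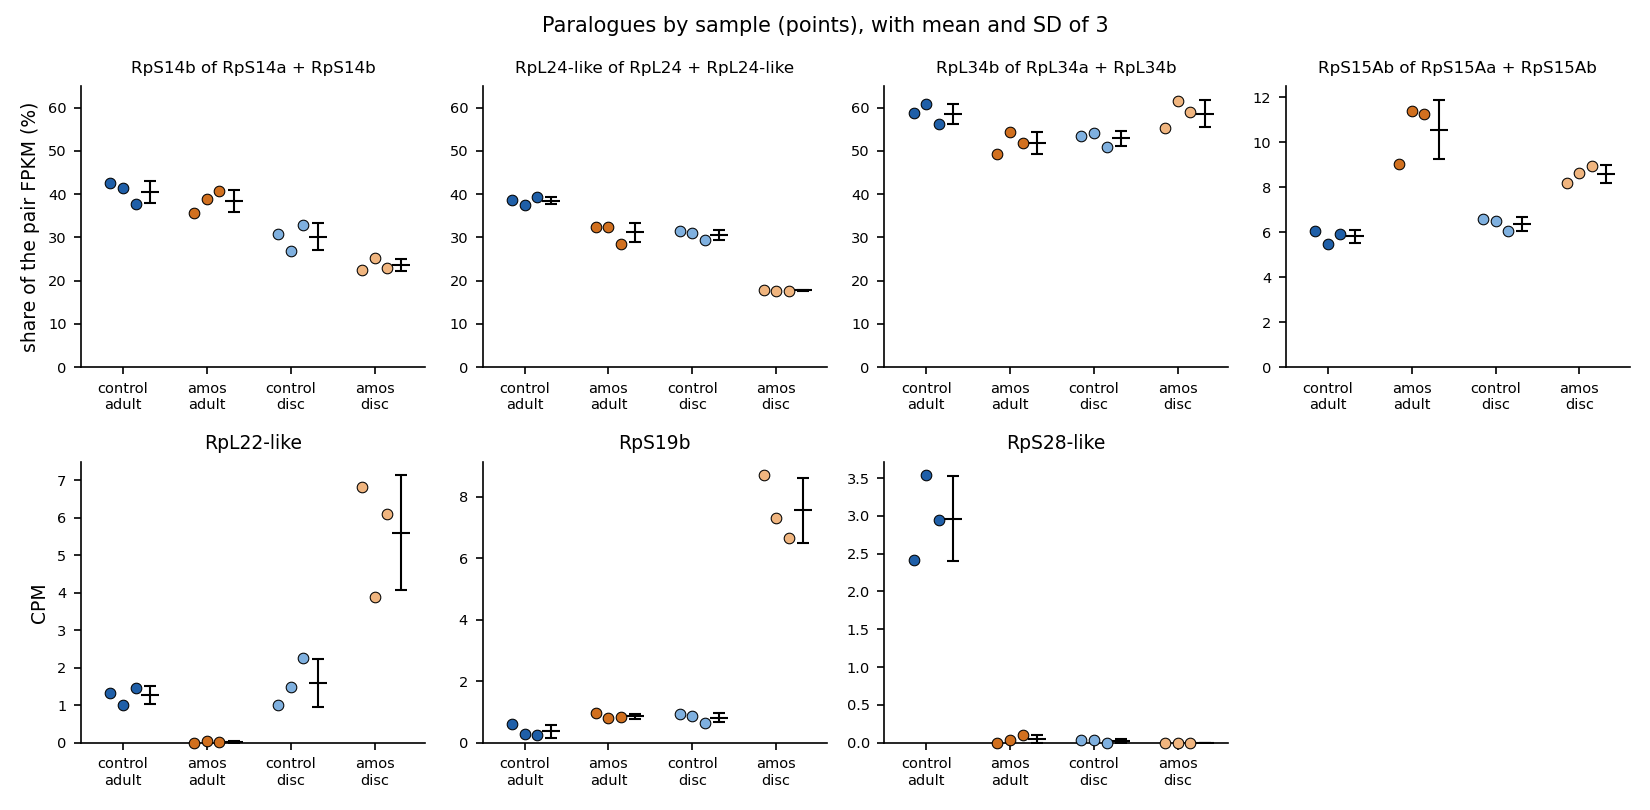
Top, share of a second copy in the FPKM of its pair in each sample (percent); bottom, CPM of 3 scarce paralogues in each sample, with mean and SD of 3 beside the points. RpS15Ab runs from 5.48% to 6.58% in controls and from 8.18% to 11.4% in *amos*, RpL22-like is at or near 0 in *amos* adults and highest in *amos* discs, and RpS28-like is present in control adults.

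Copies known mainly from the germ line were scarce, and their values rest on few reads. RpL22-like, a copy of RpL22 known from the fly testis, had 34, 26 and 37 reads in control adults and 0, 3 and 1 reads in *amos* adults. Pooled over samples and scaled to depth, control adults were 39.5 times as high (exact 95% interval 15.0 to 148, counting error only), and the log2 fold change was -5.19 ± 0.56 (edgeR adjusted p 0.00020). In discs the direction was the opposite. RpL22-like had 28, 40 and 62 reads in control discs and 268, 171 and 263 in *amos* discs, without overlap, a change of 1.83 ± 0.38 (edgeR adjusted p 0.032), lost without any one library other than control disc replicate 5. It was the 1 member called lower in adults and higher in discs, and its interaction of -6.98 ± 0.74 was the largest of all members (edgeR adjusted p 0.00012). From disc to adult its change in *amos* was -7.03 ± 0.62 (edgeR adjusted p 2.0e-05), while in control it gave -0.06 ± 0.36 and did not pass. The interaction and the *amos* stage change both rest on the 0, 3 and 1 reads of *amos* adults, so their sizes are set near the floor.

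RpS19b, the copy of RpS19 known from the germ line, had 26, 23 and 18 reads in control discs and 342, 321 and 287 in *amos* discs. The groups lay far apart, with a pooled ratio of 9.19 (exact 95% interval 7.17 to 12.0) and a log2 fold change of 3.22 ± 0.25 (edgeR adjusted p 0.0020). This was the largest change of any member between the disc groups, and it was called in every alternative. In adults RpS19b had 16, 7 and 6 reads in control and 35, 40 and 32 in *amos*, a change of 1.16 ± 0.39 (edgeR adjusted p 0.043) that DESeq2 and 5 of 6 left-out fits did not call. Its interaction was -1.98 ± 0.47 (edgeR adjusted p 0.013). RpS19a, the major copy, gave -0.33 ± 0.12 in adults (edgeR adjusted p 0.061) and 0.03 ± 0.11 in discs and passed at neither stage. Even in *amos* discs RpS19b made up 1.08% ± 0.20 of the pair.

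RpS28-like had 62, 91 and 74 reads in control adults and 0, 2 and 4 in *amos* adults, a pooled ratio of 61.7 (exact 95% interval 27.9 to 170) and a log2 fold change of -5.86 ± 0.54 (edgeR adjusted p 8.6e-05). In discs it had 1, 1 and 0 reads in control and none in *amos*, so the control adults were the 1 group in which it was detected above a few reads. It was 121 times as high in control adults as in control discs (exact 95% interval 33.2 to 1008, edgeR adjusted p 2.7e-05). RpS28-like, and RpL22-like in adults and in the *amos* stage comparison, reached the test through the group in which they were present. RpS19b reached the adult test through the *amos* adults, where it was higher. The calls of these genes in those comparisons are therefore no independent support. RpS28b, the main copy, carried from 98.5% to 100% of the family by group. RpS28-like shares 10.7% of its exon bases with CG3769 on the same strand.

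RpL7-like, whose yeast relative acts in 60S assembly, gave -0.0029 ± 0.08 and 0.24 ± 0.08 and passed at neither stage, and 98.8% of its exon bases lie in CG34164 on the same strand, so its counts are uncertain. Of 5 germ line and testis markers, bam, aly and can were matched and had at most 9 reads in any sample. Their summed level was 0.16 to 0.27 CPM in control adults, 0 to 0.080 CPM in *amos* adults, 0.15 to 0.29 CPM in control discs and 0.19 to 0.31 CPM in *amos* discs.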

How the data were processed

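Each library was one RNA sample of pooled antennae or discs, made with a stranded mRNA kit. The values used were counts of reads per gene, which the authors deposited for each sample after aligning the reads. The submitters' processing notes name cutadapt 1.2.1, TopHat2 2.0.9, HTSeq 0.5.4p3 and the build BDGP5, while the study's methods name FlyBase release 6.02. Which tools and annotation gave the counts is therefore uncertain, and the strand and overlap settings are not given in the sources used here. Reads that align to several places were left out of gene counts and made up 14.0% to 27.1% of the alignments. The 5 lines of unassigned reads stayed out of library sizes and tests.

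Gene identifiers were matched to symbols by the Ensembl 115 annotation of BDGP6.54 and the gene tables given with it (15002 of 15682 matched), which also gave exon and coding lengths. The annotation also gave the chromosome arm of each gene and the share of its exon bases that overlap another gene. No sequences were used. Counts were tested in edgeR 4.0.16 (TMM scaling, filterByExpr, quasi-likelihood F test) within R 4.3.3, on the groups compared only or, for the interaction, on all 12 samples. P-values were adjusted by Benjamini-Hochberg over all genes tested and called at 0.05. Shares and FPKM were computed in Python 3.11.15 and scipy 1.17.1. Intervals of pooled read ratios are exact 95% intervals conditional on the total, two-sided, and cover counting error only, as do the limits of 3 reads behind a count of 0. The test was run on simulated counts first. With 3 against 3 samples an exact permutation test cannot go below 0.1, so none was used. The study's methods describe the adult samples as biological replicates. For the discs nothing used here says whether the samples are separate cultures, and p-values there measure only the spread between these samples.

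The members and lists were chosen with earlier results of these data known. Named were all paralogues, the 3 highest and 3 lowest changes and levels, members more than 1 log2 unit from the member median or under 0.1 of the median level, and in each background list the 2 highest and 2 lowest, of which a few are printed. The values of 1 family of paralogues are not reported here. Further members are marked as chosen after their values were seen. As alternatives, DESeq2 1.42.0 was run with its own scaling, and edgeR with total count scaling, TMM without the ribosomal protein genes, no filter, at least 10 counts in every sample, length trends removed by loess (span 0.5), 1 fit over all 12 samples, a replicate block and each library left out. All replicate pairs differed by more than sampling noise.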

Additional observations from a re-analysis of the deposited data

Results flagged for a closer look

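By edgeR's interaction test, 16 members responded to *amos* differently in adults and in discs. The difference (adult effect minus disc effect, log2) was -6.98 for RpL22-like (4 reads over all *amos* adults), -1.98 for RpS19b and -0.88 for RpL34b. It was -0.79 for RpL23A, -0.73 for RpL35A, -0.71 for RpS26, -0.68 for RpL17 and -0.64 for RpL28. It was -0.59 for RpL6 and RpL18, -0.58 for RpL13A, -0.56 for RpL36, -0.50 for RpL26, -0.49 for RpL32 and -0.48 for RpL14. RpS15Ab alone had a positive value, 0.47. RpL32 and RpL14 are large subunit proteins like most of this set. Of the 15 negative calls, 5 (RpL22-like, RpS19b, RpL34b, RpS26 and RpL6) and that of RpS15Ab were made without any one library.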

How the results depend on the processing

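With 3 samples a group, many calls of single members were near the threshold. In discs, members higher numbered 16 with DESeq2 and 19 with a replicate block, and members lower numbered 1 with DESeq2, 1 with the exon length trend removed, 2 with the coding length trend removed and 1 in the fit over all 12 samples. Over all genes, DESeq2 called 1016 of 8883 higher and 1143 lower, and the replicate block 764 of 8909 higher. Lower calls over all genes were 643 of 8514, 592 of 8299 and 1060 of 8909 with exon length, coding length and all 12 samples. The disc median became -0.034 and -0.041 with the exon and coding length trends removed. In control, members higher in adults than discs numbered 0 with at least 10 counts in every sample, which leaves out RpS28-like, and in *amos* 1 with no filter. Interaction calls lower numbered 24 with DESeq2, beside 1180 of 10283 genes tested. In discs, same-numbered samples did not deviate together (r -0.23 and -0.20). Between *amos* adults and discs they had r of 0.10, 0.023 and 0.033, against -0.066 to 0.031 for the other pairs. The same-numbered control pair across stages had -0.12. The numbers were not taken as pairs in the main fits. With the replicate block the interaction gave 0 higher and 1 lower (RpL22-like), beside 618 and 427 of 10319 genes tested. In *amos* the block still gave 77 members lower in adults, beside 4195 of 9985 genes. The fit over all 12 samples gave 32 adult members lower, beside 1653 of 9724 genes tested.

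With all alignments as denominator the shares were 2.73% in control adults, 2.45% in *amos* adults, 10.4% in control discs and 11.1% in *amos* discs. The highest level over the median member was 2.93, 4.01, 2.66 and 2.60 by CPM in the same order, and 2.54 in control adults by the longest transcript. By CPM the leader was RpS3A in control adults, RpL5 in *amos* adults and RpL3 in both disc groups, so the lead of RpL41 holds only per length.

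Leaving out 1 library each, the calls ranged from 24 to 53 lower and 3 to 6 higher in adults, 2 to 15 higher and 0 to 0 lower in discs, 74 to 75 lower and 1 to 1 higher for stage in control, 77 to 77 lower and 0 to 1 higher for stage in *amos*, and 5 to 41 lower and 1 to 1 higher for the interaction. Calls over all genes ranged from 1797 to 2462 lower and 1662 to 2508 higher in adults. They ranged from 90 to 715 higher and 111 to 661 lower in discs. Lower calls over all genes ranged from 4057 to 4353 for stage in control, 4065 to 4218 in *amos* and 559 to 1250 for the interaction. The shares ranged from 3.86% to 4.11%, 3.24% to 3.57%, 12.2% to 13.6% and 13.5% to 13.8% (control adult, *amos* adult, control disc, *amos* disc), and the highest level over the median member from 2.39 to 2.44, 4.63 to 5.47, 4.12 to 4.25 and 6.36 to 7.94. None of the named members changed sign under an alternative while called.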
